A study of Mus musculus with 24 samples.

Results

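The 950 peaks described here are open chromatin regions within 1000 bp of the annotated start of a small RNA gene in mouse small intestinal epithelium. They were taken from 150646 consensus ATAC-seq peaks by the gene type of the nearest annotated gene (miRNA, snoRNA, snRNA, scaRNA, rRNA or misc_RNA) and the distance to its transcription start site (TSS), with no use of the counts. ATAC-seq measures accessibility by the cuts of the Tn5 transposase. Cells came directly from the small intestine of C57BL/6JRj mice, sorted as EpCam+ and CD45- (an epithelial surface protein and a leukocyte surface protein), and the groups were 3 libraries labelled young and 3 labelled aged, numbered 1, 2 and 4 in each age. No treatment or engineered allele is named in the labels, and both ages share strain, tissue and sort. The design text of the series gives 2 to 3 and 20 to 22 months, in sentences about other assays, and the labels do not say that each library is a separate mouse, so p-values measure only the spread between these libraries.

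Small RNA genes encode RNAs that act without being translated. MicroRNAs (miRNAs) repress messenger RNAs that pair with their seed, snRNAs form the core of the spliceosome, snoRNAs and scaRNAs guide chemical modification of ribosomal and spliceosomal RNA, and the misc_RNA type holds RNAs such as 7SK, Y and vault RNA. Many miRNAs and snoRNAs lie within introns of protein-coding genes and can be made from the host transcript, while 7SK, 5S rRNA and tRNA genes are read by RNA polymerase III. In the intestine, miRNAs of epithelial cells take part in keeping epithelial identity and in the renewal of the crypt.

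Of 845 tested peaks, 4 were called more accessible (0.473%, background over all tested peaks 1.07%) and 7 less accessible (0.828%, background 0.528%) in the aged libraries, and all 11 belonged to genes of the miRNA type. They ranged from a 9.08-fold lower level at Mir1905 to a 2.65-fold higher level at Mir3102. None lay within 1000 bp of a protein-coding start in the RefSeq promoter table, which does not hold every gene. The deposited annotation classed the Mir6546 peak starting at 171065275 as the promoter of another gene. The peaks of epithelial miRNA genes were not called. Those of core snRNA genes and of let-7 genes were not called with age as the only term. By edgeR with the replicate number as a further term, Rnu1a1 (U1 snRNA, adjusted p = 0.0346) and Mirlet7c-2 (adjusted p = 0.0138) were called. That fit called 13 peaks of the set higher (1.54%, background 1.99%) and 11 lower (1.3%, background 1.1%), not all of the miRNA type.

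The mature miRNAs of genes with called peaks are shown because they are products of genes whose starts lay within 1000 bp of these peaks. Of 371 miRNA gene names among the peaks, 222 were found in the RefSeq miRNA table (GRCm38.p6), from which the sequences come, written 5′ to 3′ with the seed (bases 2 to 8) in capitals. The following had peaks called higher in aged.
mmu-miR-6926-5p: uCAGUGGGgugagggaugguga
mmu-miR-6926-3p: uCACCAUCccugucuccauag
mmu-miR-6943-5p: uGGGGUGAgguuggaagcua
mmu-miR-6943-3p: cUGCUUCCauaccccuacccag
mmu-miR-7662-5p: aGGGCUGAggccuggauccagc
mmu-miR-7662-3p: uGGAGCCAggcggaucagccuugc
mmu-miR-3102-5p: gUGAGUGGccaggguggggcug
mmu-miR-3102-3p: gAGCACCCcauuggcuacccaca
mmu-miR-3102-5p.2-5p: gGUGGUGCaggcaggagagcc
mmu-miR-3102-3p.2-3p: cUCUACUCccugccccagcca

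Of the genes with peaks called lower in aged, Gm24270, Gm23935, AL589879.2 and Gm24187 had no mature miRNA found in the same table. Mir1905 and Mir6546 had these.
mmu-miR-1905: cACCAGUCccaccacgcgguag
mmu-miR-6546-5p: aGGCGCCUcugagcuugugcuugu
mmu-miR-6546-3p: gAGCGAAGcccaagcgccaga

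No seed was shared between the genes whose sequences are shown above. A shared seed did occur among the genes whose peaks were not called with age as the only term: Mirlet7c-2 and Mirlet7i both carry the let-7 seed, which 13 genes of the RefSeq table have. They are shown beside miR-29a, whose gene had a peak near the threshold.
mmu-let-7c-5p: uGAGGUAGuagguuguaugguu
mmu-let-7i-5p: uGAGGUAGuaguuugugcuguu
mmu-miR-29a-3p: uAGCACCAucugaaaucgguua

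The set held 441 peaks of miRNA genes, 200 of snRNA, 192 of snoRNA, 83 of misc_RNA, 28 of rRNA and 6 of scaRNA genes, at 800 gene identifiers. The deposited annotation classed 633 as promoter, 316 as transcription termination site and 1 as exon. Genes this short place both ends near a peak, but the termination site can also be that of another gene, as at Mir6926 and Mir29a. A further gene stood behind 139 of the peaks, which were classed as its promoter. Median width was 232 bp (range 71 to 1827 bp), against 223 bp for all consensus peaks. Counts in all peaks totalled 6149680 in young 4 and 16900796 to 23935291 in the other libraries, and the median count of a peak in the set was 16 in young 4 and 40 to 58.5 in the others. Young 4 also stood apart on the first principal component of the set, at 9.65 against -0.30 and 0.50 for young 1 and 2. The aged libraries lay at -4.46 to -2.35, so the ages did not overlap on this component. Promoter peaks were found for 12 of 14 epithelial marker genes, summing to 282 to 313 CPM in aged and 290 to 331 CPM in young. They were found for 1 of 10 leukocyte genes (16.1 to 19.1 CPM over all libraries; Ptprc, which encodes CD45, had none), 5 of 7 fibroblast and muscle genes (18.8 to 21.7 CPM), 1 of 3 endothelial genes (0.794 to 1.75 CPM) and 0 of 3 neuronal and glial genes, and no marker peak was called.

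Levels were in the range of peaks in general and well under those of protein-coding promoters. The median normalised read count (CPM, the unit in which edgeR scales the counts of a peak to a common library total, here with TMM factors; mean of 6 libraries) was 2.46 in the set and 2.06 over all consensus peaks. Protein-coding promoter-proximal peaks had a median of 9.96 CPM and were wider, at 461 bp. Per kb of peak, the medians were 10.8, 8.99 and 23.4 CPM. By type, the medians per kb were 11.8 for snRNA, 11.4 for miRNA, 10.3 for snoRNA, 9.93 for scaRNA, 9.63 for misc_RNA and 8.32 for rRNA genes. Median levels fell with distance inside the limit. They were 12.2 CPM per kb for the 367 peaks within 250 bp of the start. The 175 peaks between 750 and 1000 bp, just inside the limit, had 9.06. The 190 peaks of the same gene types at 1000 to 1250 bp, just outside it, had 9.33 CPM per kb.

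The surroundings of a peak went with its level. A protein-coding start of the RefSeq promoter table, which does not hold every gene, lay within 1000 bp of 137 peaks (14.4%, against 11.8% of all consensus peaks), and these had a median of 27.1 CPM per kb. The 391 peaks inside a protein-coding gene but away from such a start had 9.74 CPM per kb, and the 291 outside these genes 8.68. The 391 include peaks, such as that of Mir3569, that the deposited annotation classed as the promoter of another gene. The 94 peaks inside a long non-coding RNA gene had 10.8, and the 37 near the start of one had 15.03. Among miRNA genes, 99 of 441 peaks lay near a protein-coding start. Because the small RNA gene and the protein-coding gene share these peaks, their accessibility cannot be assigned to either.

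**Figure D1:**
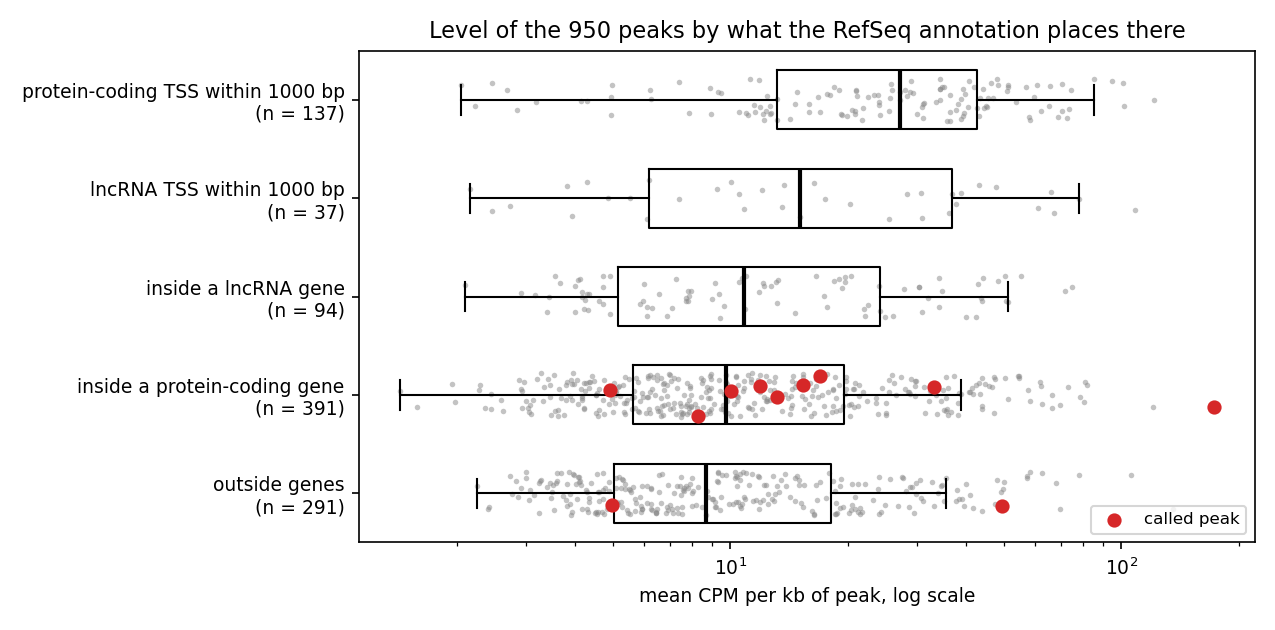
Level of each of the 950 peaks (mean CPM per kb over 6 libraries, log axis) by what RefSeq places there, as points with boxes for the median and quartiles and whiskers to the last value within 1.5 box lengths; called peaks are red. Peaks near a protein-coding start have the highest median, 27.1 CPM per kb, and the 11 called peaks lie inside protein-coding genes (9) or outside annotated ones (2).

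Several of the most accessible peaks of each type lay at the start of another gene or inside one. The miRNA type was led by the Mir1938 peak (163.7 ± 11.7 CPM, SD over 6 libraries), which spans the start of Ifrd1, a transcriptional co-regulator. Next came Mir3569 (106 ± 5.19), inside Kmt2b, a histone methyltransferase gene, and Gm27734 (104 ± 5.12) at the start of Ntan1, an amidohydrolase gene of the N-end rule pathway. Mir210, the miRNA gene best known for its induction by low oxygen, had 98.9 ± 5.91 CPM and lay outside the genes of the table. Among snoRNA genes the highest were Gm24355 at Hibadh (69.8 ± 5.71), Gm24000 at Ccm2 (50.3 ± 4.46), Snord59a at Atp5b, a subunit of the ATP synthase (48.5 ± 3.07), and Snord104 (43.9 ± 3.71). The snRNA type was led by Gm26243 in Tmem259 (73.9 ± 8.12), Gm25794 in Bsg (53.8 ± 7.66), Gm22710 (47.5 ± 3.53) and Gm25939 (47.3 ± 5.24). The Mir3569, Gm26243 and Gm25794 peaks are given here as inside a gene. The deposited annotation classed them as promoters of a gene other than the small RNA gene. It did the same for the Gm23119, Scarna2 and Gm27580 peaks listed below. Of scaRNA genes, Gm23119 (57.4 ± 6.35) and Scarna2 (22.5 ± 2.11) stood above Gm24644 (1.66 ± 0.192) and Gm26083 (1.62 ± 0.225). The highest rRNA peaks were Gm24777 (15.6 ± 1.74), n-R5s67 (14.5 ± 1.05), Gm24931 (12.8 ± 1.32) and Gm23152 (11.2 ± 1.55). Those of misc_RNA were Gm27580 (41.0 ± 1.67), the vault RNA gene Vaultrc5 (35.7 ± 2.77), Gm25545 (35.6 ± 1.80) and Gm27680 at Pitpnb (34.6 ± 6.01). None of these 24 peaks was called. In all of them but Gm25545, which was slightly higher in every aged library, the ages overlapped.

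The ages were compared to learn which peaks differ in accessibility between young and aged epithelium. The test was edgeR's quasi-likelihood test on all 129588 tested peaks. Its p-values were adjusted by Benjamini-Hochberg over all of them, a peak counted as called below 0.05, and every adjusted p given comes from this test unless another tool is named. In a bulk library, fewer cells with an open region and less access per cell cannot be told apart. Of the 950 peaks, 845 passed the filter on low counts and 105 did not. The 4 higher calls were 0.473% of those tested, against 1.07% of all tested peaks. The 7 lower calls were 0.828%, against 0.528%. Other promoter-proximal peaks, 17989 tested, had 105 higher (0.584%) and 156 lower calls (0.867%), close to the shares of the set. The 3 aged values lay all above or all below the 3 young ones at 115 peaks (13.6%, background 13.9%), 56 higher and 59 lower. The median log2 fold change (log2FC, aged over young) was -0.02, against 0.00 for all tested peaks, with 387 values above 0 and 458 below. Without young 4 the calls numbered 5 higher and 5 lower.

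The types other than miRNA had 0 calls by edgeR with age as the only term, and also by DESeq2 and limma-voom. At an unadjusted p below 0.05 there were 13 of 182 snRNA, 12 of 168 snoRNA, 6 of 71 misc_RNA, 1 of 24 rRNA and 0 of 5 scaRNA peaks. The miRNA peaks had 35 of 395, and all tested peaks 8.82%.

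When the fit took the replicate number as a block, 13 peaks of the set were called higher (1.54%, background 1.99%) and 11 lower (1.3%, background 1.1%). Of the 11 peaks called without the block, 10 were called with it. The 24 peaks called with the block belonged to genes of the miRNA (17), misc_RNA (4), snRNA (2) and snoRNA (1) types.

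**Figure D2:**
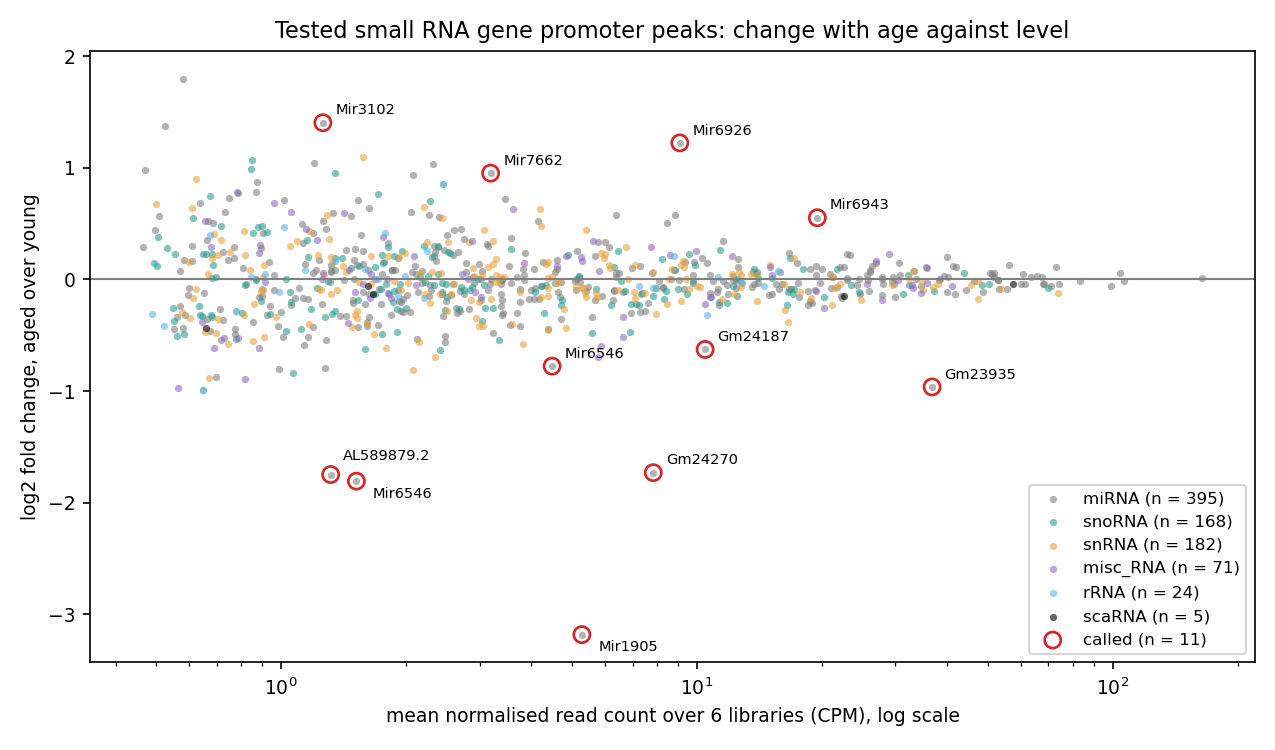
Log2 fold change, aged over young, against the mean CPM over 6 libraries (log axis) for the 845 tested peaks, coloured by gene type, with the 11 called peaks ringed and named. Most values lie near 0 (median -0.02), low peaks scatter more widely, and Mir1905 at -3.18 is the farthest from 0.

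Accessibility rose at 4 peaks. After thinning to the shallowest library none of these was called: Mir6926, Mir6943 and Mir7662 had adjusted p of 0.371, 0.188 and 0.905, and Mir3102 did not pass the filter on low counts. The Mir6926 peak (chromosome 11, 74867220 to 74867810, GRCm38) lay 679 bp from the annotated start, inside Sgsm2, which encodes a regulator of small GTPases. The deposited annotation classed this peak as the termination site of a gene other than Mir6926. It had 11.4, 12.8 and 14.3 CPM in aged 1, 2 and 4 and 5.35, 6.09 and 4.62 CPM in young 1, 2 and 4. Every aged library was above every young one, by a log2FC of 1.22 (SE 0.16; edgeR, adjusted p = 4.27e-06). Of 3 other tested peaks within 10000 bp, 1 was also called higher; it is assigned to the same gene, beyond the distance limit, with a log2 fold change of 0.94.

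The Mir3102 peak (chromosome 7, 100882297 to 100882552) covers the hairpin, with an overlap of 104 bp, inside Arhgef17. Its values were low, at 1.60, 1.80 and 2.27 CPM in aged against 0.778, 0.792 and 0.318 CPM in young. The ages did not overlap, and the log2FC was 1.40 (SE 0.33; edgeR, adjusted p = 0.0147). The call was lost without aged 4 (adjusted p = 0.106), without young 2 (adjusted p = 0.0674) and by DESeq2 (adjusted p = 0.0977).

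The Mir7662 peak (chromosome 10, 62194470 to 62194712) lay inside Tspan15, a tetraspanin gene. It had 4.07, 4.51 and 4.26 CPM in aged against 2.38, 2.33 and 1.59 CPM in young. The aged values were close together and all above the young ones, with a log2FC of 0.95 (SE 0.22; edgeR, adjusted p = 0.0106), and the call was lost without young 2 (adjusted p = 0.0644) and by DESeq2 (adjusted p = 0.0511). The Mir6943 peak (chromosome 13, 55451839 to 55452426) lay at -974 bp (upstream) from the annotated start, close to the distance limit. It lay inside Grk6, which encodes a kinase of G protein-coupled receptors. It had 24.5, 21.9 and 23.6 CPM in aged against 17.0, 16.3 and 13.5 CPM in young. Again no aged value overlapped a young one, and the log2FC was 0.55 (SE 0.12; edgeR, adjusted p = 0.00959). That call was lost without aged 1 (adjusted p = 0.0603) and without young 2 (adjusted p = 0.0751).

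Accessibility fell at 7 peaks of 6 genes. After thinning, Mir1905 and Gm23935 were still called, and the other 5 had adjusted p between 0.0623 (Gm24270) and 0.993 (Gm24187). The Mir1905 peak (chromosome 3, 88536430 to 88536874) lay inside Mex3a, an RNA-binding protein gene known as a marker of a subset of intestinal stem cells. It had 0.986, 1.09 and 1.02 CPM in aged against 8.79, 9.81 and 10.0 CPM in young. The libraries of each age agreed closely and the ages were far apart, with a log2FC of -3.18 (SE 0.21; edgeR, adjusted p = 5.38e-12). None of the 5 other tested peaks within 10000 bp, which are assigned to Mex3a, Rab25 and Gm37584, was called, and their log2 fold changes ran from -0.13 to 0.36. Of those 6 peaks, 1 was called.

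The Gm24270 peak (chromosome 9, 56223572 to 56224033), inside the pseudokinase gene Peak1, had 3.76, 3.84 and 2.84 CPM in aged against 12.3, 7.63 and 16.7 CPM in young. The young libraries differed among themselves by more than the aged ones, yet none overlapped them. The log2FC was -1.73 (SE 0.22; edgeR, adjusted p = 1.22e-05), and all 4 other tested peaks within 10000 bp were below 0 without being called. The Gm23935 peak (chromosome 16, 11144102 to 11144314), inside the zinc finger gene Zc3h7a, was the most accessible called peak. It had 30.6, 25.6 and 17.7 CPM in aged against 46.6, 38.9 and 61.1 CPM in young. The number 4 libraries were the extremes of both ages, without overlap between ages, and the log2FC was -0.96 (SE 0.18; edgeR, adjusted p = 0.00464). With the replicate number as a block its adjusted p was 0.516, without young 1 it was 0.170, and by DESeq2 it was 0.0765.

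Peaks at Mir6546 and AL589879.2 also overlap RefSeq tRNA genes. Mir6546 lies inside Fcgr3, an Fc receptor gene, where the peak at chromosome 1, 171065275 to 171065425, overlaps the tRNA gene n-TDgtc3. The deposited annotation classed this peak as the promoter of a gene other than Mir6546. It had 0.678, 0.752 and 0.568 CPM in aged against 2.88, 1.83 and 2.39 CPM in young. The aged values were all under the young ones, with a log2FC of -1.81 (SE 0.31; edgeR, adjusted p = 4.57e-04). The wider peak at 171064478 to 171065018 covers 62 bp of the Mir6546 hairpin and the tRNA gene n-TGtcc1. It had 3.39, 2.97 and 3.41 CPM in aged against 6.04, 4.41 and 6.69 CPM in young, again without overlap. Its log2FC was -0.78 (SE 0.20; edgeR, adjusted p = 0.0332). Leaving out any library other than young 2 lost that call, with adjusted p of 0.0720, 0.126 and 0.0716 without aged 1, 2 and 4, and 0.193 and 0.0867 without young 1 and 4, and DESeq2 gave 0.108. AL589879.2 (chromosome 13, 21924755 to 21925018), outside protein-coding genes and over the tRNA gene n-TStga2, had 0.308, 0.376 and 1.14 CPM in aged against 1.92, 2.08 and 2.07 CPM in young. Aged 4 was above the other aged libraries but under every young one, and the log2FC was -1.75 (SE 0.37; edgeR, adjusted p = 0.00501).

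The Gm24187 peak (chromosome 13, 9834307 to 9834517), also outside those genes, had 9.86, 7.02 and 7.33 CPM in aged against 12.3, 10.1 and 16.2 CPM in young. Aged 1 lay just under young 2, and the ages did not overlap. The log2FC was -0.63 (SE 0.17; edgeR, adjusted p = 0.0428). This call was lost under 8 of 13 alternatives, among them without aged 2 or 4 and without young 1 or 4, with adjusted p between 0.0737 and 0.206.

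**Figure D3:**
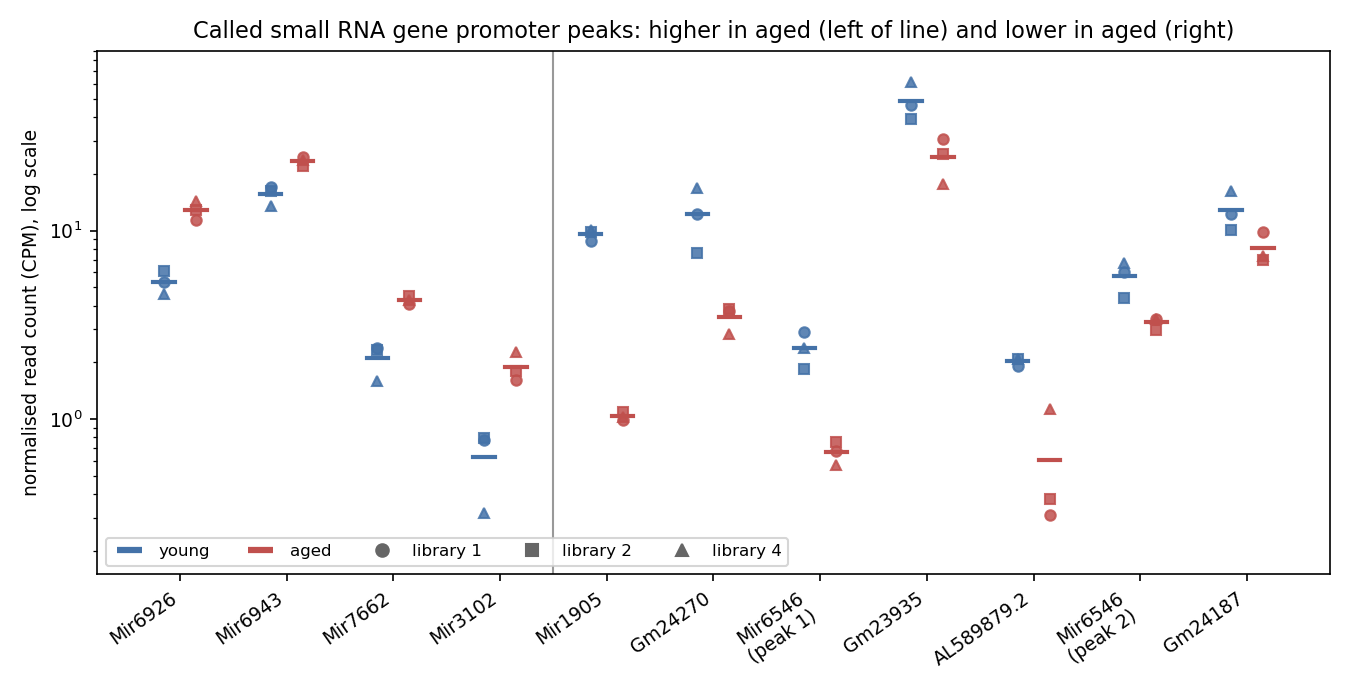
Normalised read count (CPM, log axis) of the 11 called peaks in each library; blue is young, red is aged, the marker shape gives the library number and bars are means. For Mir6546, peak 1 starts at 171065275 and peak 2 at 171064478. No aged value overlaps a young one at any of them, and the gap is widest at Mir1905, 0.986 to 1.09 CPM in aged against 8.79 to 10.0 in young.

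Genes with known roles were described by list. Epithelial miRNA genes, such as the Mir200 and Mir194 genes, had peaks at 13 of 28 genes listed; of 15 tested peaks 0 were called (0 also at an unadjusted p below 0.05), 5 were above and 10 below 0, and the median log2 fold change was -0.13. The highest levels there were at Mir203, a miRNA of squamous and other epithelia (60.7 CPM), Mir200a (51.3) and Mir194-2 (44.4). The smallest p values belonged to low peaks at Mir196b (-0.41, SE 0.28), within the Hoxa cluster, Mir31 (-0.42, SE 0.33), Mir203 (-0.27, SE 0.23) and Mir7b (-0.20, SE 0.21), with adjusted p between 0.800 and 0.918. Mir34b, a target of p53, was the only peak of the growth and p53 list (-0.28, SE 0.29). None of the 26 imprinted small RNA genes listed had a peak in the set, and only 1 of these names occurs in the deposited peak annotation at any distance. Inflammation-linked miRNA genes had 8 tested peaks, 0 called (1 at an unadjusted p below 0.05), 4 above and 4 below 0, with a median of 0.01. Among them were Mir23b (0.30, SE 0.26), Mir212 (0.11, SE 0.13) and Mir181a-2 (-0.19, SE 0.23). In the deposited annotation the Mir34b, Mir23b and Mir212 peaks were classed as promoters of another gene.

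Mir29a of that list, whose product targets collagen and other matrix transcripts, had 8.69, 6.60 and 7.67 CPM in aged against 5.45, 4.56 and 5.41 CPM in young. All aged values were above all young ones, with a log2FC of 0.58 (SE 0.17; edgeR, adjusted p = 0.0966), and with the replicate block the adjusted p was 0.0133. Mirlet7c-2, of the let-7 family that restrains growth-promoting transcripts, had 12.9, 8.15 and 9.14 CPM in aged against 7.69, 6.83 and 6.05 CPM in young. The ages did not overlap there either; the log2FC was 0.51 (SE 0.17; edgeR, adjusted p = 0.175), and the adjusted p was 0.0138 with the block and 0.0477 without aged 2. Without aged 1, the highest library, the log2FC was 0.30 (adjusted p = 0.722). Mirlet7i, with the same seed, had 28.0 ± 0.973 CPM in aged and 28.1 ± 6.98 in young.

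Of the miRNA genes of other cell types, 5 of 33 had a peak. These were the neuronal genes Mir124a-1, Mir124a-3, Mir9-2 and Mir9-3 and the smooth muscle gene Mir145a. Their summed level was 8.15 to 9.60 CPM in aged and 9.40 to 10.6 CPM in young. The set held no peak of the leukocyte genes Mir142 and Mir223 or of the endothelial gene Mir126a; peaks farther than 1000 bp from a start were not counted here. Of 3 tested peaks, the neuronal miRNA gene Mir124a-3 had -0.48 (SE 0.21; edgeR, adjusted p = 0.459) and the smooth muscle miRNA gene Mir145a had 0.08 (SE 0.32) and -0.04 (SE 0.21).

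The core snRNA, snoRNA and noncoding polymerase III genes had 24 tested peaks at 19 of 28 genes. By edgeR 0 were called (2 at an unadjusted p below 0.05, both lower), 7 were above and 17 below 0, and the median log2 fold change was -0.10. Rnu1a1, which encodes U1 snRNA of the major spliceosome, had 15.2, 15.2 and 12.6 CPM in aged against 16.5, 19.5 and 20.5 CPM in young. The aged values were all lower, with a log2FC of -0.38 (SE 0.13; edgeR, adjusted p = 0.208, and 0.0346 with the block). Rnu3b4, one of the U3 snoRNA genes needed for rRNA processing, had -0.54 (SE 0.21, adjusted p = 0.350) and also no overlap between the ages. Rn7sk, whose RNA holds the elongation factor P-TEFb in check, had -0.25 (SE 0.13). Rnu11, of the minor spliceosome, had -0.23 (SE 0.12), and the ages overlapped at both. In the deposited annotation the Rn7sk peak was classed as the promoter of another gene. Many snRNA, U3 and 5S genes have near-identical copies, and how reads mapping to several copies were treated is not given in the sources used here, so their counts are uncertain.

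By type, snRNA peaks had 19 cases in which all aged values lay under all young ones (10.4% of 182, background 6.54%) and 6 of the opposite (3.3%, background 7.32%). The share of all counts that fell in snRNA peaks was 0.132, 0.130 and 0.130% in aged 1, 2 and 4 against 0.135, 0.136 and 0.136% in young. Every aged library was lower, by a small margin. For misc_RNA peaks the order turned, with 15 of 71 higher (21.1%) and 5 lower (7.04%), although of the 6 with an unadjusted p below 0.05, 5 were lower and 1 higher. All peaks of the set together held 0.785% ± 0.00971 of the counts in aged and 0.796% ± 0.0165 in young (SD, n = 3), with overlap between the ages. Of the 12 gene names with 3 or more peaks, among them the snRNA genes Gm22614, Gm24445 and Gm25313 with 4 each, none had a called peak. At Gm25890, a snRNA gene beside Gm22614 on chromosome 3, all 3 peaks were below 0 (-0.29 to -0.48).

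Among peaks that were not called, the highest log2 fold changes were at Mir7020 (1.80, SE 0.50, adjusted p = 0.0584, and 0.0310 with the block), AL671921.1 (1.37, SE 0.49) and the snRNA gene Gm23027 (1.1, SE 0.33, adjusted p = 0.107). Without aged 2 the adjusted p of Gm23027 was 0.0170, and without aged 4 its log2 fold change was 0.62 (adjusted p = 0.801). The lowest were at the snoRNA gene Gm26012 (-0.99, SE 0.43) and the misc_RNA genes Gm27695 (-0.97, SE 0.45) and Gm23921 (-0.89, SE 0.43). Without young 1 the value of Gm23921 was -0.01, without young 2 that of Gm26012 was -0.64, and neither was called in any fit. All 6 had mean levels of 1.58 CPM or less.

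The overlap of called peaks with tRNA genes was seen in the data and then followed in the whole table, so what follows is a description of a group chosen after its values were known. The RefSeq table holds 430 genes for tRNAs, which carry amino acids to the ribosome. They were overlapped by 179 consensus peaks, of which 8 belong to the small RNA set. Their share of all counts was 0.228, 0.226 and 0.213% in aged 1, 2 and 4 against 0.246, 0.240 and 0.244% in young. Every aged library was below every young one. Of 174 tested peaks over tRNA genes, 9 were called lower (5.17%, background 0.528%) and 0 higher, and 154 (88.5%) were below 0, against 50.7% of all tested peaks. The 9 clustered in few places. Those assigned to Trim27, Gm11278, AL589879.2, Zfp184 and Btn2a2 lay between 21215428 and 23501103 on chromosome 13. Both Mir6546 peaks lay between 171064478 and 171065425 on chromosome 1. The 9 include the 3 called peaks of the small RNA set that led to this look. At an unadjusted p below 0.05 there were 27 of the 174 peaks, 25 lower and 2 higher, against 8.82% of all tested peaks. By edgeR with RLE scaling 9 were called lower and 0 higher, by DESeq2 8 and 0, and after thinning to the shallowest library 0 and 0, with 71.8% below 0. The median log2 fold change was -0.16. It lay between -0.11 (without aged 4) and -0.20 (without aged 1) over all alternatives run. In the small RNA set, 7 of the 8 were tested: 3 were called lower, Mir8105 had -0.19, and 3 peaks at AC034285.1 ran from -0.44 to 0.01.

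The peaks over RefSeq snRNA genes, all 39 of them in the set, had 29 of 38 tested values below 0 (76.3%) and a median of -0.12. In 9 of them all aged values were under all young ones (23.7%, background 6.54%), and in 0 the opposite held. Their share of counts was 0.0486, 0.0475 and 0.0476% in aged against 0.0507, 0.0527 and 0.0535% in young. By edgeR 0 of the 38 tested were called. An unadjusted p below 0.05 was found for 5 of them, all lower, against 8.82% of all tested peaks. With the replicate block 1 was called. Peaks over snoRNA genes had a median of -0.11 in 72 tested, with 2 cases lower (2.78%, background 6.54%) and 3 higher (4.17%, background 7.32%) without overlap. Peaks over miRNA hairpins had a median of -0.01 in 127 tested, 1 called higher and 1 lower, and shares of counts that overlapped between the ages. After thinning to the shallowest library the median over snRNA genes was -0.15 and 72.2% of tested values were below 0, and the median over tRNA genes was -0.14. Without young 4 the medians were -0.12 (snRNA) and -0.18 (tRNA). The part of multiple mapping was not tested.

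**Figure D4:**
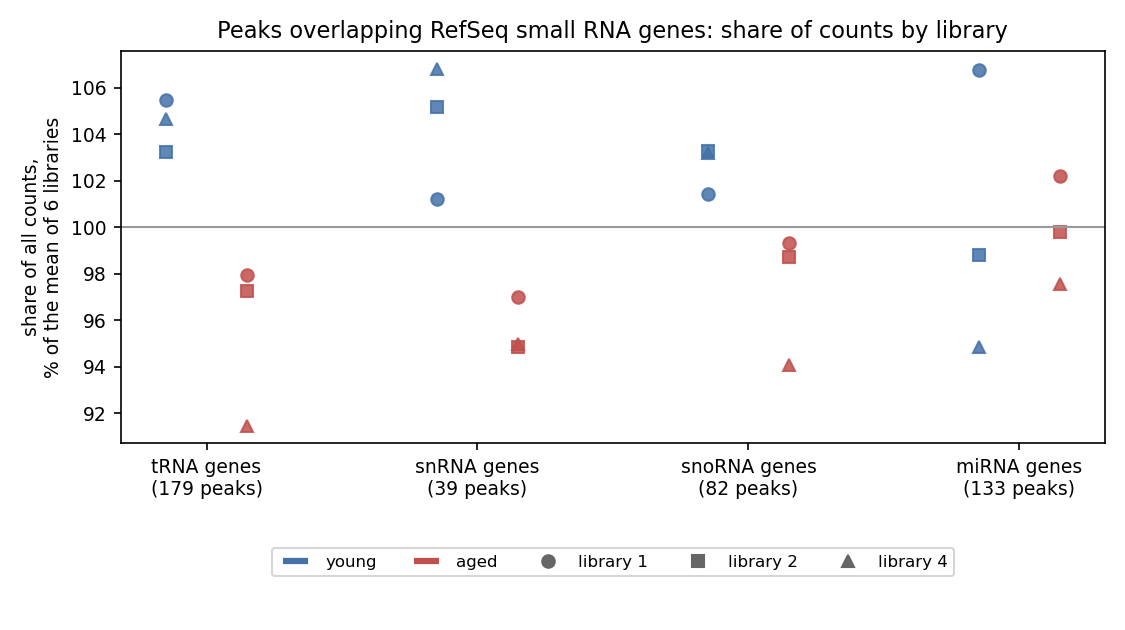
Share of all counts in peaks that overlap RefSeq tRNA, snRNA, snoRNA and miRNA genes, as a percentage of the mean of the 6 libraries; blue is young, red is aged, and the marker shape gives the library number. All aged libraries lie below all young ones for tRNA, snRNA and snoRNA genes, whereas the ages overlap for miRNA genes; the vertical axis does not start at 0.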

How the data were processed

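ATAC-seq of 6 libraries (3 young, 3 aged; 24 lane records, 4 per library, sharing 1 column of counts) was analysed. The authors deposited raw, unnormalised counts for each consensus peak and library, beside a table of peak positions, gene types and distances to the TSS. Tools in the submitters' processing notes are, by name, bedtools 2.29.2, BWA 0.7.17-r1188, deepTools 3.4.3, FastQC 0.11.9, featureCounts 2.0.1, MACS2 2.2.7.1, MultiQC 1.9, Picard 2.23.1, R 3.6.2, SAMtools 1.10 and Trim Galore 0.6.4, and the build is GRCm38. What was not given in the sources used here: settings of the peak caller, any Tn5 shift, the annotation release, whether reads or fragments were counted, and how multiple mapping was treated. Library PCR ran for 17 cycles, per the labels' protocols, and no molecular identifiers are named, so errors of counting assume independent molecules.

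From the counts, edgeR 4.0.16 (R 4.3.3) filtered peaks with filterByExpr, scaled them by TMM and ran the quasi-likelihood test with robust dispersions on the whole table, age being the only term. SE were derived from each F statistic. CPM use TMM-scaled library sizes. The fit was tested on simulated data. DESeq2 1.42.0 and limma-voom 3.58.1, RLE scaling, other filters, thresholds and distances, thinning to the shallowest library, a replicate block and leaving out each library were run as alternatives. No libraries agreed within sampling noise (chi-square per peak 1.67 to 4.11).

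The replicate numbers occur in both ages. Deviations from the age means correlated at 0.265, 0.199 and 0.148 for the same number and -0.205 to 0.0285 otherwise. By the criterion of 0.1 the numbers were taken to pair the libraries, but what a number stands for is not in the labels. Age stayed the only term of the main fit, so its calls and adjusted p leave this pairing out. The fit with the number as a block is given as an alternative. Members, gene lists and rules were chosen with earlier results of these data known. Peaks were named if called, if among the 4 highest of a gene type, if among the 4 smallest p of a list, if at a gene with 3 or more peaks, or if among the 3 highest or lowest uncalled fold changes. RefSeq gene positions and miRNA sequences are of GRCm38.p6, and 509 of 797 gene names matched RefSeq within 5000 bp.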

Additional observations from a re-analysis of the deposited data

How the results depend on the processing

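Of the 11 called peaks, 1 (Mir1905) was called under all 13 alternatives; the other 10 lost the call at least once, and none changed sign. RLE scaling changed no call among the 35 named log2 fold changes. The counts of peaks of the set called higher and lower in aged, 4 and 7, became 13 and 11 with the replicate block, 0 and 3 after thinning to the shallowest library and 2 and 4 by DESeq2. The higher count was 2 at an adjusted p of 0.01 and 10 at 0.1. Within 500 bp, a smaller set of peaks, it was 2. Within 5000 bp, a larger set of peaks, the counts were 26 and 22. Shares of the peaks tested were not computed at these distances, so these counts cannot be set beside the background. Leaving out each library gave 1 (without young 2) to 8 (without aged 2) higher and 5 to 7 lower. Over all peaks, 1393 higher and 684 lower calls became 2578 and 1420 with the block, 71 and 55 after thinning, 803 and 439 at an adjusted p of 0.01, and 805 higher by DESeq2; leaving out each library gave 742 to 1462 higher and 474 to 646 lower. The median log2 fold change of the set lay between -0.0361 and 0.00965 when a library was left out. Among those fits it was above 0 only without young 1. After thinning to the shallowest library the median was also above 0, at 0.00227. The difference in the share of counts in the set kept its sign under the alternatives run on it, which were chosen after seeing the data, as were those for peaks over tRNA and snRNA genes. The paired fit also changed the calls of Mir29a, Mirlet7c-2, Rnu1a1, Mir7020 and Gm23935, given beside them, and no other call of a named peak.

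Signs turned at uncalled peaks only: Mir7b to 0.18 after thinning, Mir145a to -0.0126 (replicate block) and, when a library was left out, to between -0.16 and 0.20 at the one peak and between -0.123 and 0.0722 at the other, Mirlet7i to between -0.19 and 0.14, and Mir212 to between -0.0105 and 0.26. The causes were not tested. Low counts in young 4, the shallowest library, limit the precision of low peaks.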
